A study of Mus musculus with 386 samples.

Results

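The BCL2 family of death regulators was followed in single female germ cells of the mouse ovary as 10 genes chosen by name, of the 54658 gene rows in the deposited count table. Of these, 6 act for cell death (Bax, Bak1, Bbc3, Pmaip1, Bid and Bcl2l11) and 4 are classed as acting against it (Bcl2, Bcl2l1, Mcl1 and Bcl2l10). All 10 had a row in the table. The germ cells were collected by hand from enzymatically dissociated ovaries at embryonic day 17.5 (E17.5) and at postnatal days 2.5 (P2.5) and 6.5 (P6.5), with no treatment or genotype named in the labels. Smart-seq2, a full-length method that starts from polyadenylated RNA, gave 386 libraries, of which 22 came from E17.5 and 364 from after birth, 47 of the latter from P6.5. Nothing in the labels ties a cell to an animal, litter or day of collection. Each stage was therefore handled as 1 sample made of many cells, and no test between stages was possible.

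BCL2 family proteins decide whether the outer membrane of the mitochondrion is opened, the step that releases cytochrome c and leads to caspase activity. BAX and BAK open the membrane. The BH3-only proteins, among them PUMA (from Bbc3), NOXA (Pmaip1), BID and BIM (Bcl2l11), set this off, and BCL2, BCL-XL (Bcl2l1) and MCL1 hold it back. The period from late gestation to the first days after birth is known in the mouse for a large loss of oocytes, while the survivors are enclosed in primordial follicles and some start to grow. TAp63, a p53 relative from Trp63, guards resting oocytes and is known to act through Bbc3 and Pmaip1 after DNA damage. Much of the activity of the family is set at the protein level, which transcripts do not show.

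Among the P2.5 libraries, 24 pairs agreed nearly as closely as repeat counts of the same RNA would and were summed as 1 cell, which left 362 cells in all, with 340 from after birth, 47 of them from P6.5. Library totals ran from 1.02e+06 to 1.61e+07 gene counts at E17.5, from 435560 to 2.40e+07 at P2.5 and from 5.71e+06 to 1.58e+07 at P6.5. The median of gene counts per spike-in count, a guide to RNA per cell, was 81.3 at E17.5, 465 at P2.5 and 3203 at P6.5. The 6 germ cell markers (Ddx4, Dazl, Dppa3, Mael, Taf4b and Sycp3) summed to between 2002 and 7680 counts per 1000000 (CPM) in P2.5 cells and between 3636 and 6741 CPM in P6.5 cells. At E17.5 the sum had a median of 3228 CPM, but 4 libraries (8, 10, 15 and 16) reached only 246.6 to 705.2 CPM, and in library 10 the 6 mast cell markers summed to 118082 CPM. The E17.5 libraries also differed by number. In libraries 1 to 10 the mast cell list summed to between 1462 and 118082 CPM and the 20 oocyte growth genes had a median sum of 593 CPM, against 0 to 25.4 CPM and 91.5 CPM in libraries 11 to 22. E17.5 values are therefore also given without the 4 libraries, or in the 2 runs of numbers, for members where that ends a call or turns a direction. Not every such value is printed, so a member without one is not thereby shown to be stable.

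Levels below are CPM of the counts summed over the cells of a stage, unless they are said to be of single cells. Log2 ratios between stages carry 95% Poisson intervals, which cover the counting of reads and not the spread between animals. A member was counted as higher or lower when the stage levels differed by at least 2-fold after 0.5 CPM was added to both. By that rule 2 of 10 members were higher at P2.5 than at E17.5 (Bax and Bcl2l10) and 4 were lower (Bak1, Bbc3, Bcl2l11 and Mcl1), while among 17421 measured genes 22.6% were higher and 32.4% lower. From P2.5 to P6.5, 1 member was higher (Bcl2l10) and 2 were lower (Bbc3 and Bcl2), against 6.90% and 9.30% of 14643 measured genes; Bak1 was under 1 CPM at both stages and was not among the measured genes. Between P6.5 and E17.5, 2 were higher (Bcl2l1 and Bcl2l10) and 5 lower (Bak1, Bbc3, Bcl2l11, Bcl2 and Mcl1), against 22.7% and 39.5% of 17430 genes. For P2.5 over E17.5 the counts lie near the shares among all genes, so it is the single members and their cells that are described. The 3 comparisons share their stages and are not independent.

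**Figure D1:**
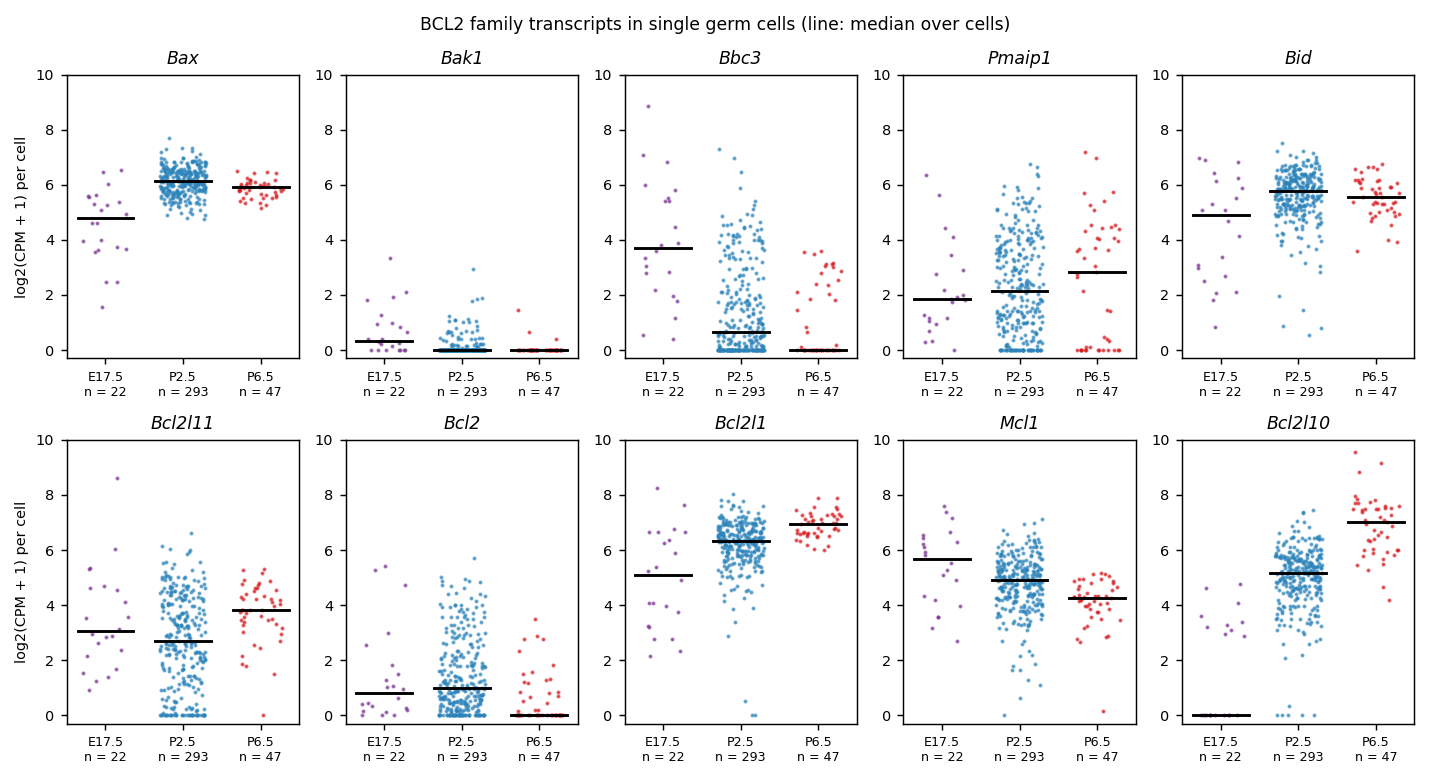
Level of each BCL2 family member in the 362 single cells by stage (22 cells at E17.5, 47 at P6.5 and the rest at P2.5), as log2(CPM + 1), with 1 point per cell and a line at the median. Bcl2l10 lies at 0 in 12 E17.5 cells and between 17.3 and 760 CPM at P6.5, while Bbc3 has median levels of 11.97, 0.590 and 0 CPM.

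With 0.5 CPM added to both levels, the largest difference in each of the 3 comparisons was that of Bcl2l10, a member with oocyte-rich expression whose role in the mouse is disputed (chromosome 9, 75347758 to 75351632, plus strand, in GENCODE M21 for the mm10 build). Its level was 4.15 CPM at E17.5, 40.4 CPM at P2.5 and 158.7 CPM at P6.5. Over single cells it had a lowest, median and highest level of 0, 0 and 26.6 CPM at E17.5, of 0, 34.9 and 173.8 CPM at P2.5, and of 17.3, 127.1 and 759.8 CPM at P6.5. Of the P2.5 cells 65.5%, and of the P6.5 cells 95.7% (45 of 47), exceeded the highest E17.5 cell. The other 34.5% of P2.5 cells lay inside the E17.5 range, and 29 of 47 P6.5 cells lay inside the P2.5 range. The log2 ratio was 3.28 (3.17 to 3.40) from E17.5 to P2.5 and 1.97 (1.96 to 1.99) from P2.5 to P6.5. Counts reach 0 in all of E17.5 libraries 11 to 22 and lie between 6.42 and 26.6 CPM in every one of libraries 1 to 10. Against libraries 11 to 22, where 3 counts over the summed 12 libraries would be 0.0385 CPM, P2.5 was at least 1050-fold and P6.5 at least 4125-fold higher. These bounds cover the counting of reads in the pooled libraries only, not the spread between cells. With 0.5 CPM added, the log2 ratios against these libraries were 6.35 and 8.31. Against libraries 1 to 10 alone, the log2 ratio with 0.5 CPM added was 2.07 for P2.5 and 4.03 for P6.5. Bcl2l10 was at least 2-fold higher at the later stage in all 3 comparisons under every one of the 13 other settings tried. Some of these settings could not change the outcome. The filter and the pairing of P2.5 libraries do not enter the summed levels. The choice of E17.5 libraries does not enter P6.5 over P2.5.

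Within a stage, too, Bcl2l10 was higher in cells with more transcripts of growth genes (20 oocyte genes such as Zp3, Gdf9 and Nlrp5). The Spearman correlation with their summed CPM was 0.73 over 47 P6.5 cells, 0.74 over 22 E17.5 cells and 0.28 over the P2.5 cells. These cells come from unknown animals. The E17.5 value follows the split by library number, and within libraries 1 to 10 it was 0.04. Over P6.5 cells the correlation of Bcl2l10 with gene counts per spike-in count was 0.41, with depth 0.28 and with genes detected 0.47. With gene counts per spike-in count it was negative at the other stages, at -0.14 over P2.5 cells and -0.31 over E17.5 cells. Over P2.5 cells the 5 genes of at least 20 CPM most like it in rank were Elobl (0.35), Aven (0.35), Hsp90aa1 (0.34), Sp110 (0.33) and Efcab6 (0.32), among 7185 genes whose median correlation was 0.01.

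Bcl2l1, which encodes BCL-XL (chromosome 2, 152780668 to 152831728, minus strand), was the other protective member with higher levels after birth. Its level was 47.6 CPM at E17.5, 85.98 CPM at P2.5 and 125.97 CPM at P6.5. Single cells had a lowest, median and highest level of 3.46, 32.9 and 307.07 CPM at E17.5, of 0, 79.96 and 261.4 CPM at P2.5, and of 63.5, 123.3 and 237.5 CPM at P6.5. Every cell at P2.5 and P6.5 lay below the highest E17.5 cell, library 1. The next highest was library 11 at 200.1 CPM, below the highest P2.5 and P6.5 cells. The range was narrowest at P6.5. The log2 ratio was 0.85 (0.82 to 0.89) for P2.5 over E17.5, 0.55 (0.54 to 0.56) for P6.5 over P2.5 and 1.40 (1.37 to 1.44) for P6.5 over E17.5. E17.5 library 1 alone held 17.3% of the E17.5 counts, and without it the first ratio with 0.5 CPM added was 1.08, past 2-fold. Leaving out the 4 libraries poor in germ cell transcripts worked the other way: with 0.5 CPM added, P2.5 over E17.5 was then 0.41, and P6.5 over E17.5 went from 1.39 to 0.96, inside 2-fold. The deposited FPKM also put P6.5 over E17.5 inside 2-fold, at 0.91. Over P6.5 cells its Spearman correlation with the growth genes was 0.51, against 0.11 over P2.5 cells.

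Mcl1, whose protein is short-lived (chromosome 3, 95658788 to 95663176, plus strand), ran the other way as a share of all counts. Its level was 69.1 CPM at E17.5, 32.04 CPM at P2.5 and 18.3 CPM at P6.5. In single cells the lowest, median and highest levels were 5.52, 50.1 and 194.4 CPM at E17.5, then 0, 28.9 and 140.5 CPM at P2.5, and 0.108, 18.02 and 34.99 CPM at P6.5. All P2.5 and P6.5 cells were inside or below the E17.5 range. The log2 ratio was -1.11 (-1.14 to -1.08) for P2.5 over E17.5 and -0.81 (-0.84 to -0.77) for P6.5 over P2.5. The E17.5 level leaned on the 4 libraries with few germ cell transcripts, which gave 29.97% of all E17.5 counts but 53.9% of those of Mcl1. With 0.5 CPM added, the first ratio without them was -0.50, inside 2-fold. Without library 8 or library 10 alone it was -0.89 or -0.91, and against libraries 11 to 22 alone it was -0.84. With TMM or median-of-ratios scaling, or as a mean over cells, it was also inside 2-fold. P6.5 stayed more than 2-fold below E17.5 without the 4 libraries, at -1.29 with 0.5 CPM added. Counted per spike-in the same transcripts were higher at each later stage, with a median over cells of 2.71, 12.2 and 66.1 counts per 1000 spike-in counts. In summed levels the log2 ratios per spike-in were 1.26 and 2.11, below the medians of 1.85 and 2.68 over all genes.

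Bcl2 is the founding member of the family (chromosome 1, 106538178 to 106714274, minus strand). In the summed counts it was the least abundant of the protective 4 per length at every stage. In E17.5 libraries 11 to 22 alone Bcl2l10 was lower, with 0 counts. The level of Bcl2 was 4.50 CPM at E17.5, 3.35 CPM at P2.5 and 0.931 CPM at P6.5. Single cells ranged from 0 to 41.7 CPM with a median of 0.747 CPM at E17.5, from 0 to 51.99 CPM with a median of 0.976 CPM at P2.5, and from 0 to 10.2 CPM with a median of 0 at P6.5. A few cells held most of it, and 25 of 47 P6.5 cells had no count. The log2 ratio was -0.42 (-0.54 to -0.31) for P2.5 over E17.5 and -1.85 (-2.0 to -1.70) for P6.5 over P2.5. E17.5 library 3 held 42.05% of the E17.5 counts, and the level was 2.73 CPM without it. The sign of P2.5 over E17.5 turned with the E17.5 libraries used: with 0.5 CPM added it was -1.16 against libraries 1 to 10 and 0.90 against libraries 11 to 22. P6.5 over E17.5 was -1.80 with all E17.5 libraries but -0.53, inside 2-fold, against libraries 11 to 22. Counted per spike-in, P6.5 over P2.5 was 0.98, against a median of 2.68 over all genes. Part of the exons, 558 bases, is shared with D630008O14Rik, and whether strand was used in the counting is not given in the sources read here.

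Among the effectors that open the mitochondrial membrane, Bax (chromosome 7, 45461697 to 45466898, minus strand) was present in every cell and Bak1 was close to absent after birth. Bax stood at 30.1 CPM at E17.5, 70.01 CPM at P2.5 and 58.1 CPM at P6.5. The lowest, median and highest cell had 1.94, 26.8 and 91.3 CPM at E17.5, then 26.2, 68.6 and 206.7 CPM at P2.5, and 34.8, 59.4 and 89.3 CPM at P6.5. The postnatal cells lie in the upper part of the E17.5 range, and 60 P2.5 cells (20.5%) lay above it. The log2 ratio was 1.22 (1.18 to 1.26) for P2.5 over E17.5 and -0.27 (-0.29 to -0.25) for P6.5 over P2.5, the latter inside 2-fold. Against E17.5 libraries 11 to 22 alone the first ratio, with 0.5 CPM added, was 0.94. The log2 ratio of P6.5 over E17.5 was 0.95 (0.90 to 1.0), inside 2-fold. With 0.5 CPM added, leaving out E17.5 library 15 or library 16 put it past 2-fold, at 1.10 without library 16.

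The length that the 2 deposited tables together imply for Bax differs from its annotated length. Whether the 2 tables also count its reads differently was not tested. Its counts and FPKM values together imply a length of 251.2 bases, while its exons in GENCODE M21 cover 1576 bases and its longest coding transcript has 1100 bases. The ratio of the exon length to the implied length was 6.27, and 3.52% of 7557 genes had one as large, with a median of 1.81. Bax therefore weighs more in any sum of FPKM than in a sum of counts per kilobase (kb), which touches the pro- to anti-apoptotic ratio below. The exons of Bax also overlap those of Gm45808.

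Bak1 (chromosome 17, 27019810 to 27029009, minus strand) had 1.74 CPM at E17.5, 0.121 CPM at P2.5 and 0.0538 CPM at P6.5. A count was found in 15 of 22 E17.5 cells (68.2%, Clopper-Pearson interval 45.1% to 86.1%), in 50 P2.5 cells (17.1%, 12.9% to 21.9%) and in 3 of 47 P6.5 cells (6.38%, 1.34% to 17.5%). These intervals treat every cell as an independent draw and do not cover the spread between animals. With each cell thinned to 400000 counts, the numbers were 6, 13 and 2 cells. The log2 ratio of P2.5 over E17.5 was -3.84 (-4.09 to -3.59), or -1.85 with 0.5 CPM added. Those 4 E17.5 libraries held 80.9% of its E17.5 counts, with 9.24 CPM in library 8. Without those 4 the E17.5 level was 0.475 CPM, so that Bak1 was under 1 CPM at all 3 stages. Its exons share 614 bases with Ggnbp1, a gene whose reads could be counted to it if strand was not used.

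The BH3-only member with the clearest stage difference was Bbc3, which encodes PUMA (chromosome 7, 16308393 to 16318205, plus strand). Its level was 35.7 CPM at E17.5, 5.59 CPM at P2.5 and 2.15 CPM at P6.5. Single cells had a lowest, median and highest level of 0.306, 11.97 and 458 CPM at E17.5, of 0, 0.590 and 157.7 CPM at P2.5, and of 0, 0 and 11.1 CPM at P6.5. A count was found in all 22 E17.5 cells, in 67.9% of P2.5 cells and in 22 of 47 P6.5 cells. The log2 ratio was -2.68 (-2.72 to -2.63) for P2.5 over E17.5 and -1.38 (-1.48 to -1.28) for P6.5 over P2.5. The first was also past 2-fold when those 4 E17.5 libraries were left out, and was -1.49 against libraries 1 to 10 alone with 0.5 CPM added. The second rested in part on P2.5 library 92, which held 19.2% of the P2.5 counts at 157.7 CPM. Without it the ratio with 0.5 CPM added went from -1.20 to -0.93. Counted per spike-in, the summed level at P2.5 differed from E17.5 by -0.25 on the log2 scale, against a median of 1.85 over all genes, and was higher by 1.47 at P6.5 than at P2.5, against a median of 2.68. In the median cell it was 0.753, 0.271 and 0 counts per 1000 spike-in counts.

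Bbc3 at E17.5 moved with markers of the cells that surround oocytes. Its Spearman correlation with the summed CPM of 12 granulosa and pregranulosa markers was 0.65 over 22 E17.5 cells. That list summed to between 1.25 and 2189 CPM at E17.5 with a median of 62.3 CPM, and to medians of 5.88 CPM at P2.5 and 6.74 CPM at P6.5. No gene of the list was at 0 throughout a stage. Both follow the split by library number: in libraries 1 to 10 the median was 3.23 CPM for Bbc3 and 11.4 CPM for the list, and in libraries 11 to 22 it was 41.7 and 162.2 CPM. Within these runs the correlation was 0.43 over 10 cells and 0.13 over 12 cells. The part of these markers in the Bbc3 level was not tested. Over P2.5 cells the correlation was 0.10.

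Bcl2l11, which encodes BIM (chromosome 2, 128126038 to 128162547, plus strand), was lower after birth in the summed counts, which 1 E17.5 library dominated. Its level was 37.7 CPM at E17.5, 10.8 CPM at P2.5 and 15.2 CPM at P6.5, with a log2 ratio of -1.81 (-1.85 to -1.76) for P2.5 over E17.5. E17.5 library 10, with 395 CPM, held 66.9% of the E17.5 counts, and it is the library with 118082 CPM of mast cell markers. Without it the E17.5 level was 13.3 CPM, and the ratio with 0.5 CPM added was -0.29 for P2.5 and 0.18 for P6.5. Without all 4 libraries those ratios were 0.20 and 0.67, and against libraries 11 to 22 alone they were -0.32 and 0.15. The median cell had 7.32 CPM at E17.5, 5.51 CPM at P2.5 and 13.3 CPM at P6.5, and a count was found in all 22 E17.5 cells, in 89.1% of P2.5 cells and in 46 of 47 P6.5 cells.

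Bid, the member that caspase-8 can cleave into an active form (chromosome 6, 120891930 to 120916853, minus strand), was inside 2-fold in all 3 comparisons with all libraries. It stood at 43.5, 57.7 and 50.7 CPM at the 3 stages. The lowest, median and highest cell had 0.778, 28.9 and 125.7 CPM at E17.5, then 0.479, 54.1 and 180.2 CPM at P2.5, and 11.1, 46.1 and 108.2 CPM at P6.5. The stages overlap nearly in full. Against E17.5 libraries 1 to 10 and 11 to 22 the log2 ratio of P2.5 took opposite signs, -0.11 and 1.02, the latter past 2-fold. That of P6.5 did so too, at -0.30 and 0.84. Without the 4 libraries the ratio of P2.5 went from 0.40 to 0.99. Bid shares 628 exon bases with its neighbour Bcl2l13.

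Pmaip1, which encodes NOXA, was also inside 2-fold in summed CPM with all libraries. It stood at 10.5 CPM at E17.5, 9.41 CPM at P2.5 and 14.5 CPM at P6.5, and E17.5 library 20 with 81.4 CPM held 56.2% of the E17.5 counts. Without that library the E17.5 level was 4.97 CPM and P6.5 was higher by 1.45 on the log2 scale with 0.5 CPM added. P6.5 over E17.5 was also past 2-fold with TMM scaling (1.02), with medians over cells (1.11) and against E17.5 libraries 1 to 10 (1.36). Against libraries 11 to 22 it was -0.03. P2.5 over E17.5 took opposite signs, 0.76 against libraries 1 to 10 and -0.62 against libraries 11 to 22. Cells differed widely at every stage: from 0 to 81.4 CPM with a median of 2.57 CPM at E17.5, from 0 to 106.5 CPM with a median of 3.37 CPM at P2.5, and from 0 to 145.9 CPM with a median of 6.13 CPM at P6.5.

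**Figure D2:**
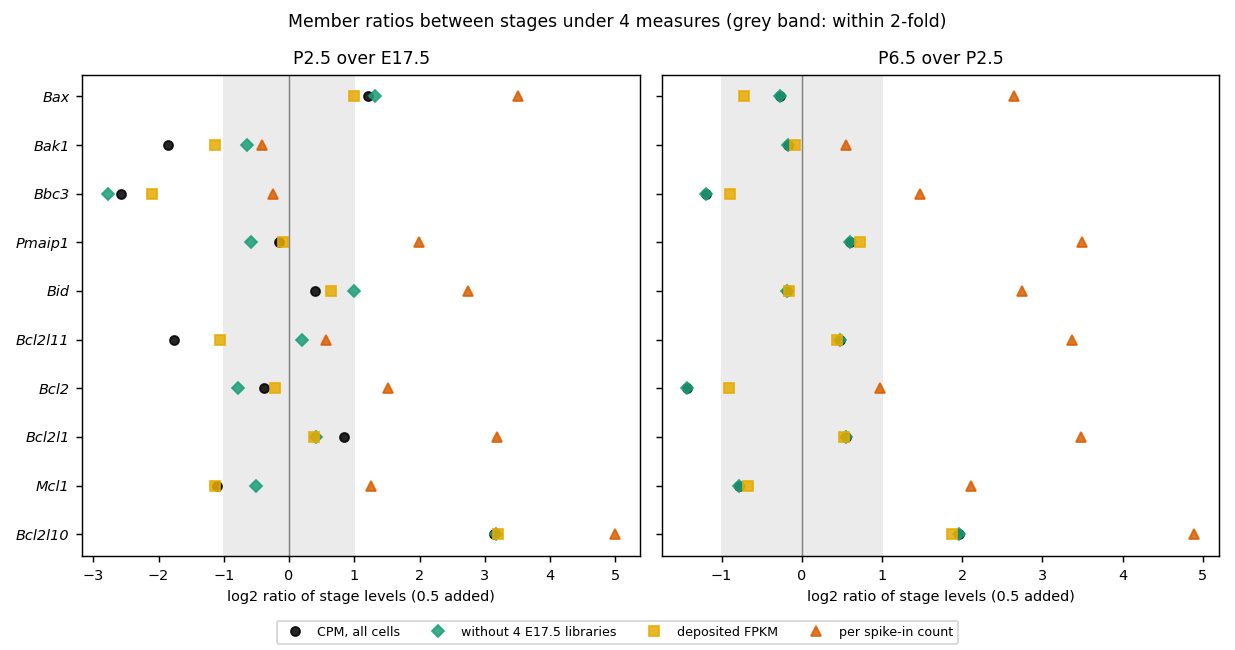
Log2 ratio of each member between stages (horizontal axis, 0.5 added to both levels) for P2.5 over E17.5 and P6.5 over P2.5, from CPM, from CPM without 4 E17.5 libraries low in germ cell markers, from the deposited FPKM and per spike-in count. Bcl2l10 lies right of the 2-fold band under each measure; Bbc3 at P2.5 lies left of it except per spike-in (-0.25), and Bcl2l11 moves from -1.76 to 0.20 without the 4 libraries.

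The ordering of members within a stage was read per length, as CPM per kb of exon. At E17.5 the highest were Mcl1 with 20.2, Bax with 19.1, Bbc3 with 16.8, Bid with 12.3 and Bcl2l1 with 10.4 CPM per kb. At P2.5 the order was Bax (44.4), Bcl2l10 (33.1), Bcl2l1 (18.7), Bid (16.3) and Mcl1 (9.37). At P6.5 Bcl2l10 led with 130, followed by Bax with 36.8, Bcl2l1 with 27.5, Bid with 14.3 and Mcl1 with 5.35. The E17.5 order rests on the 4 libraries poor in germ cell transcripts. Without them it was Bbc3 (19.4), Bax (17.6), Bcl2l1 (14.04), Mcl1 (13.3) and Bid (8.10), with Mcl1 no longer first, and neighbours in either order cannot be separated given the spread of their cells. In the summed counts the lowest at every stage were Bak1 and Bcl2, at 0.724 and 0.491 CPM per kb at E17.5, at 0.0505 and 0.366 at P2.5, and at 0.0223 and 0.102 at P6.5. In E17.5 libraries 11 to 22 alone the lowest was Bcl2l10, with 0 counts.

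The ratio of pro- to anti-apoptotic transcripts was formed in each cell as the sum of counts per kb over the 6 pro-apoptotic members divided by that over the 4 anti-apoptotic members. Its median was 1.27 at E17.5 (quartiles 0.820 and 2.85), 1.19 at P2.5 (0.849 and 1.68) and 0.451 at P6.5 (0.306 and 0.726). The full range was 0.102 to 7.32 at E17.5, 0.297 to 5.65 at P2.5 and 0.0450 to 1.76 at P6.5. More transcripts stood on the pro-apoptotic side in 14 of 22 E17.5 cells, 60.8% of P2.5 cells and 5 of 47 P6.5 cells. From the deposited FPKM these shares were 21 of 22 E17.5 cells, 100% of P2.5 cells and 35 of 47 P6.5 cells, so which side held more at P6.5 depends on the table. The P6.5 median was 2.64-fold below that of P2.5, and 43 of 47 P6.5 cells lay below the P2.5 median, 12 of them below every P2.5 cell. E17.5 and P2.5 differed little in the median (1.06-fold), with a wider spread at E17.5. Within E17.5 the median was 0.980 in libraries 1 to 10 and 2.64 in libraries 11 to 22. With the 4 libraries named above left out it was 1.14.

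The low ratio at P6.5 rested largely on Bcl2l10. The pro-apoptotic sum was nearly level, with medians of 55.03, 66.6 and 59.7 CPM per kb at the 3 stages. The anti-apoptotic sum had medians of 34.2, 55.7 and 135.5 CPM per kb, but without Bcl2l10 these were 25.3, 27.2 and 32.3 CPM per kb. With Bcl2l10 left out, the median ratio was 1.78 at E17.5, 2.55 at P2.5 and 1.92 at P6.5, and 43 of 47 P6.5 cells then had more pro- than anti-apoptotic transcripts. P6.5 then lay close to E17.5 and still below P2.5. From the deposited FPKM, where Bax weighs more, the medians were 3.88, 3.90 and 1.37 with all members and 4.17, 6.91 and 3.98 without Bcl2l10. P6.5 was the lowest stage in each of these except counts per kb without Bcl2l10.

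**Figure D3:**
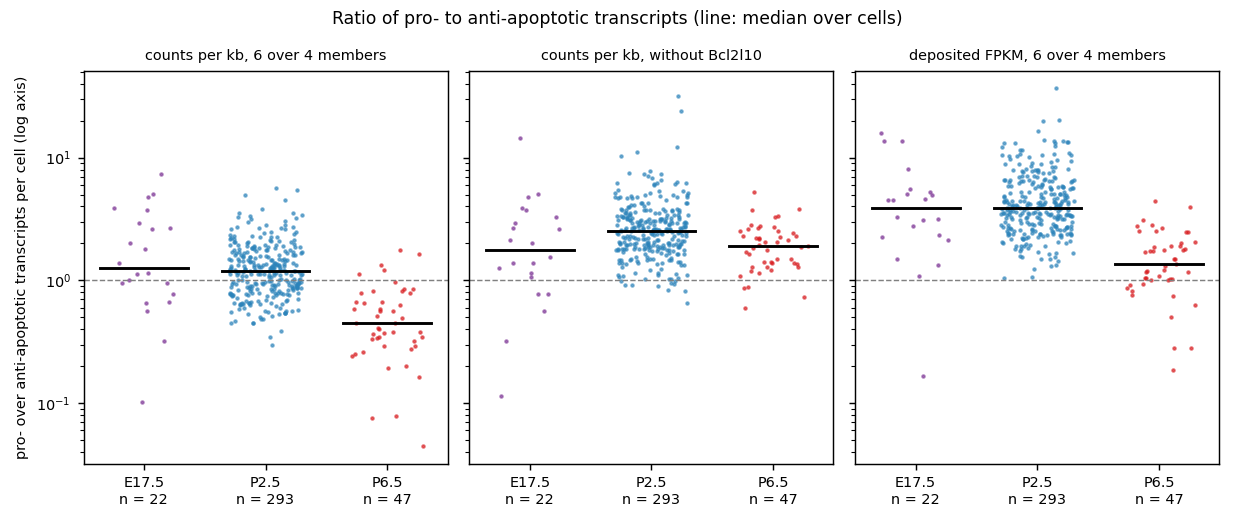
Pro- over anti-apoptotic transcripts in single cells of each stage on a log axis, from counts per kb with all members, from counts per kb without Bcl2l10, and from the deposited FPKM; 1 point per cell, line at the median. The P6.5 median of 0.451 in the first panel becomes 1.92 without Bcl2l10, and from FPKM it is 1.37.

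The make-up of both sides differed between stages. On the anti-apoptotic side, Mcl1 was the leading member in 12 of 22 E17.5 cells, Bcl2l10 in 66.2% of P2.5 cells and in 46 of 47 P6.5 cells. The median share of Bcl2l10 was 0% at E17.5, 50.7% at P2.5 and 75.4% at P6.5, while that of Mcl1 was 49.8%, 15.3% and 3.39%. Bcl2l1 held a median of 22.9%, 31.1% and 18.1%. On the pro-apoptotic side Bax led in 9 of 22 E17.5 cells, 96.6% of P2.5 cells and 45 of 47 P6.5 cells. Its median share was 34.5%, 67.9% and 65.9%, and that of Bbc3 was 23.1%, 0.451% and 0%. From FPKM, Bax led in every cell. On the other side Bcl2l1 then led in 12 of 22 E17.5 cells, against 9 for Mcl1, and in 54.3% of P2.5 cells, against 43.3% for Bcl2l10, while Bcl2l10 led in 39 of 47 P6.5 cells. The leading protective member at E17.5 and P2.5 thus differs between the tables.

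**Figure D4:**
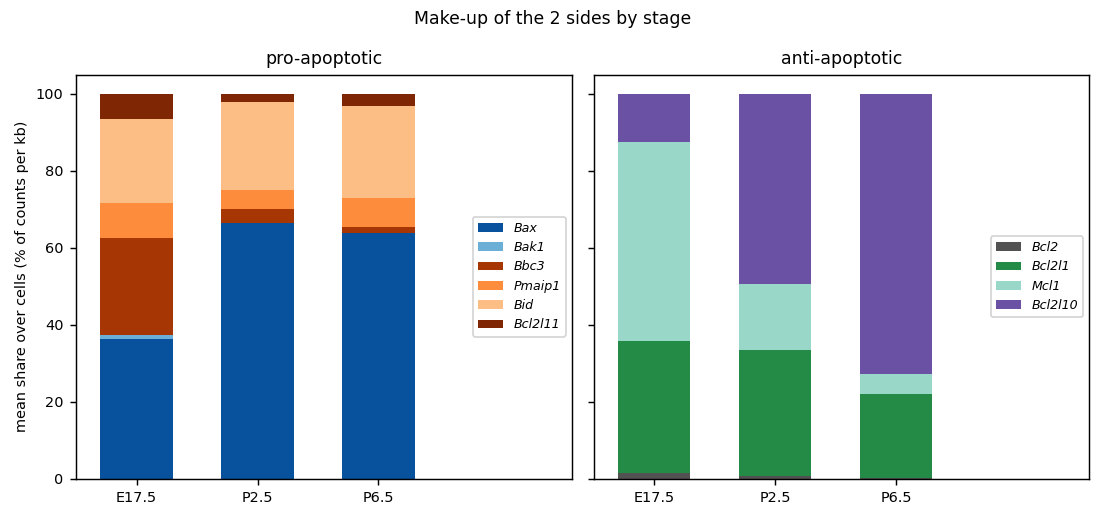
Mean share over cells of each member in its side (percent of counts per kb) for the 3 stages; stacked bars sum to 100%. Bcl2l10 goes from a mean of 12.6% of the anti-apoptotic side to 49.3% and 72.9%, and Bbc3 from 25.2% of the pro-apoptotic side to 3.54% and 1.65%.

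The BH3-only members alone gave another order of stages than Bax and Bak1. Over the 4 anti-apoptotic members, the 4 BH3-only members gave median ratios of 0.940, 0.388 and 0.151 at the 3 stages. Bax and Bak1 together gave 0.595, 0.749 and 0.296. The summed BH3-only level had medians of 28.3, 22.6 and 21.5 CPM per kb, and the summed effector level 17.03, 43.6 and 37.7 CPM per kb.

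Within P2.5, the stage with most cells, the members separated into even and patchy ones. The coefficient of variation over cells was 0.362 for Bax, 0.486 for Bcl2l1, 0.513 for Bid, 0.666 for Mcl1 and 0.686 for Bcl2l10, all under the median of 0.724 over 14188 genes. It was 1.24 for Bcl2l11, 1.61 for Pmaip1, 1.75 for Bcl2, 2.75 for Bbc3 and 4.20 for Bak1, which are also the members of lowest level. For Bbc3 the 29 highest cells held 64.4% of the level summed over cells, 19 cells had at least 20 CPM and 94 had no count. For Pmaip1 the 29 highest held 49.4% and for Bax 17.1%.

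Correlations between members over P2.5 cells were weak. All Spearman correlations between 2 members lay between -0.22 and 0.17. Bbc3 and Pmaip1 correlated with each other at 0.15, and with Trp63, whose product drives both genes in damaged oocytes, at 0.07 and 0.02. In sparse counts such values are no finding. The ratio per cell correlated with Bcl2l10 at -0.67, with Bax at 0.53 and with Bcl2l1 at -0.43, which are among its own terms, and with Bbc3 at -0.13. The growth genes are no term of the ratio. They did correlate with its term Bcl2l10, at 0.28 over P2.5 cells and 0.73 over 47 P6.5 cells. At P6.5 the ratio itself correlated with Bcl2l10 at -0.90. How much of its link to the growth genes came through Bcl2l10 was not tested. The correlation of the ratio with the growth genes was -0.34 at P2.5 and -0.78 over 47 P6.5 cells. With gene counts per spike-in count it was -0.03 at P2.5 and -0.44 at P6.5.

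Bax differed from the other members in its ties to other genes. Over P2.5 cells the 5 genes most like it were Ndufs5 (0.75), Tmsb10 (0.73), Ndufb6 (0.71), Uqcr11 (0.71) and Ndufa5 (0.69), where the median over 7185 genes was -0.04. Of these, 4 encode subunits of the respiratory chain and Tmsb10 encodes an actin-binding peptide. For no other member with at least 20 CPM was the highest value above 0.35. Bax was lower in cells with more Kit (-0.48), a receptor of growing and resting oocytes, and with more growth gene transcripts (-0.39; -0.17 from FPKM). It was higher in cells with more of the 5 erythroid markers (0.38), a list that summed to between 0 and 2561 CPM at P2.5 with a median of 9.40 CPM. Its correlation with gene counts per spike-in count was -0.31 and with depth -0.20. The part of erythroid RNA or depth in the level of Bax was not tested.

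**Figure D5:**
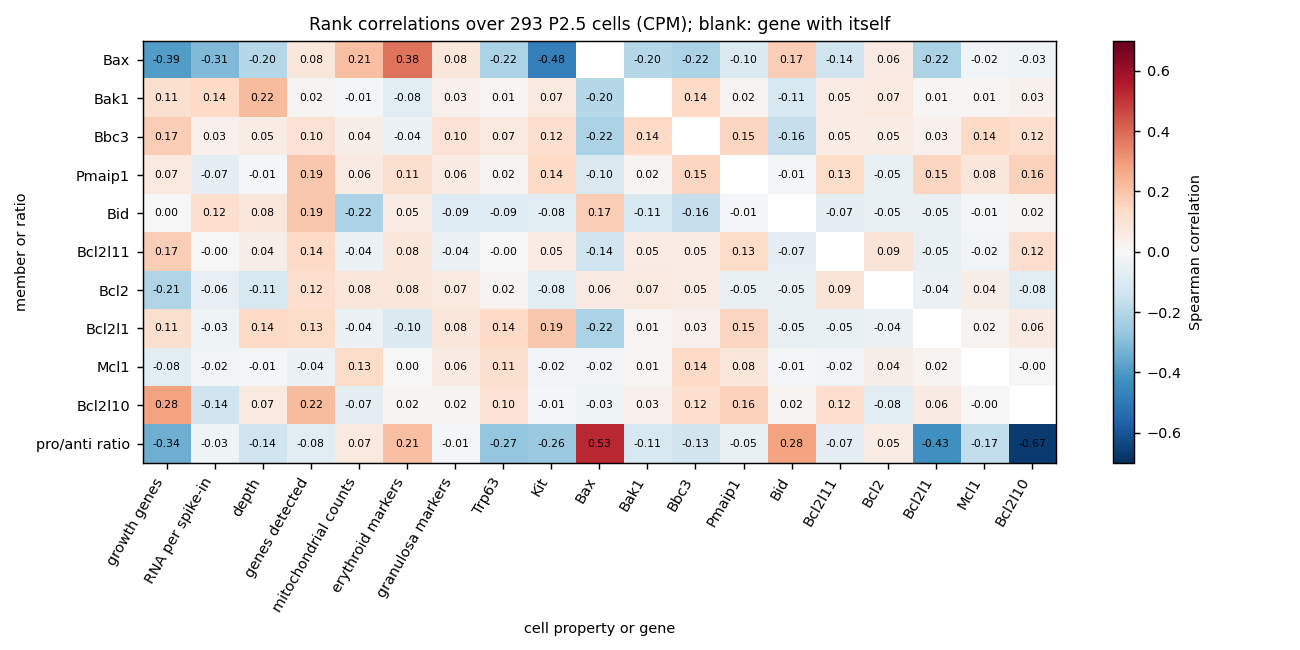
Spearman correlations over all P2.5 cells between each member or the pro/anti ratio (rows) and cell properties, marker lists, Trp63, Kit and the members (columns); colour from blue (negative) to red (positive). Members correlate with each other between -0.22 and 0.17, and the ratio follows Bcl2l10 at -0.67 and Bax at 0.53.

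Of the other BCL2 family genes, 9 of 15 were measured from E17.5 to P2.5, 4 of them higher (Bmf, Bcl2l12, Bnip3 and Bnip3l) and 3 lower (Bok, Bik and Bcl2l13), beside 22.6% and 32.4% of all measured genes. Without the 4 E17.5 libraries Bok was no longer among the lower ones. Bnip3l, a mitophagy receptor, had 143.1 CPM before and 586.6 CPM after birth at P2.5, and Bcl2l13 had 111.9 and 38.1 CPM. The list median was 0.89 on the log2 scale, against -0.26 over all genes. From P2.5 to P6.5, 1 of 9 was higher: Bik, a BH3-only gene, at 1.62 and then 5.46 CPM. Among all measured genes 6.90% were higher and 9.30% lower in that comparison.

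Of the 15 genes for mitochondrial death steps and caspases, all were measured from E17.5 to P2.5, with 2 higher and 5 lower, and a list median of -0.76 against -0.26 over all genes. The lower share is close to the 32.4% among all genes, and the higher one is below their 22.6%. Casp8, the initiator caspase that cleaves BID, was at 8.80 CPM and then 0.296 CPM. Casp2, a caspase studied in oocyte death, was higher at 40.1 CPM, then 135.3 CPM and then 83.1 CPM, and Casp6 went from 33.2 to 71.1 CPM. Counted per spike-in, Casp8 was still lower at P2.5, while 11 of the 15 were higher. The list median was then 1.54, against 1.85 over all genes, which is itself past 2-fold. The 11 are therefore no result about the list. Casp8 was also lower with the 4 E17.5 libraries left out. From P2.5 to P6.5 the only member past 2-fold was Casp8, which was higher, beside 6.90% of all measured genes higher and 9.30% lower.

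Of 5 inhibitors of apoptosis, Birc5, better known as survivin and needed for cell division, was higher at P2.5 than at E17.5, with 198.4 and 489.7 CPM. Xiap (86.4 and 41.2 CPM) and Birc6 (167.01 and 79.3 CPM) were lower. Among all measured genes 22.6% were higher and 32.4% lower. Birc3 was the 1 gene past 2-fold from P2.5 to P6.5, at 22.9 and 58.3 CPM, beside 6.90% of all genes higher and 9.30% lower. Among 17 upstream genes, Trp63 had the largest ratio, with 5.10 CPM at E17.5, 257.2 CPM at P2.5 and 220.3 CPM at P6.5, a log2 ratio of 5.65 (5.55 to 5.76) for P2.5 over E17.5. Its known targets Bbc3 and Pmaip1 had log2 ratios of -2.68 and -0.16 in the same comparison. Ddit3, a stress-induced factor that can drive Bcl2l11 and Bbc3, was lower at P2.5, with 43.2 and 6.43 CPM, and Mdm4, a restraint on p53, was higher, with 176.2 and 455.1 CPM. In all, 3 of 16 measured upstream genes were higher at P2.5 and 3 were lower, with a median of -0.19. These shares lie below the 22.6% and 32.4% of all genes, and the median is near their -0.26. Without the 4 E17.5 libraries 4 were higher and 3 lower.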

How the data were processed

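The authors deposited whole-number counts per gene and FPKM values, 1 column per library; 0 columns belonged to no labelled library. The submitters' processing notes list mm10 as the build, with RSEM 1.3.3, HTSeq 0.13.5 and STAR 2.7.10b. Which tool made which table, the annotation and the strand setting are not given in the sources read here. For 382 of 386 libraries the FPKM column most like the counts was the library's own.

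P2.5 libraries whose nearest neighbour had a median chi-square per gene under 1.5 were summed as 1 cell. Spike-in rows were left out of CPM. Measured genes had at least 1 CPM in either stage and a count in at least 3 cells. Lengths are the union of GENCODE M21 exons. Pathway genes were named by rule: the 2 highest and 2 lowest log2 ratios of each fixed list in a comparison, with at least 5 CPM in either stage, beside genes listed with a count of calls. A gene that the rule names is not reported here. The members and lists were chosen with earlier results of these data known. With 1 sample a stage there were no tests, and intervals cover the counting of reads or of cells, not animals. Fold calls were tried on simulated stage sums with counting noise only, which hold no spread between cells or libraries. Python 3.11.15, numpy 2.4.6, scipy 1.17.1, pandas 2.3.3, R 4.3.3 and edgeR 4.0.16 (scaling factors only) were used. Alternatives covered scaling, table, weighting, pseudocount, filter, libraries, gene length and the make-up of the ratio.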

Additional observations from a re-analysis of the deposited data

How the results depend on the processing

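Of 16 calls of a member as higher or lower over the 3 comparisons, 16 were kept with a pseudocount of 0.1 CPM or with E17.5 libraries 1 to 10 only, 15 with means over cells, 14 with TMM scaling, 13 with median-of-ratios scaling, 12 with a pseudocount of 2 CPM, 11 from FPKM, with medians over cells or with libraries 11 to 22 only, 10 without the 4 E17.5 libraries low in germ cell markers and 5 per spike-in count. The filter and the pairing of P2.5 libraries do not enter the summed levels, and the choice of E17.5 libraries does not enter P6.5 over P2.5. Per spike-in count, 7, 8 and 9 members were at least 2-fold higher in P2.5 over E17.5, P6.5 over P2.5 and P6.5 over E17.5, and 0 were lower in each, beside medians over all genes of 1.85, 2.68 and 4.46. These medians are past 2-fold, so most measured genes were also higher, and the counts are no result about the members. Among the calls, the ratios with changed sign per spike-in count were 0.57 for Bcl2l11 and 1.26 for Mcl1 (P2.5 over E17.5). For P6.5 over P2.5 they were 1.47 for Bbc3 and 0.98 for Bcl2. For P6.5 over E17.5 they were 0.14 for Bak1, 1.22 for Bbc3, 3.93 for Bcl2l11, 2.50 for Bcl2 and 3.37 for Mcl1. Ratios inside 2-fold changed sign too. These were Pmaip1 (1.99) and Bcl2 (1.51) for P2.5 over E17.5. For P6.5 over P2.5 they were Bax (2.65), Bid (2.74), Mcl1 (2.11) and Bak1 (0.55). Bcl2l11 also changed sign without the 4 E17.5 libraries low in germ cell markers (0.20 for P2.5 and 0.67 for P6.5 over E17.5), and for P6.5 over E17.5 with the median over cells (0.82) and with E17.5 libraries 11 to 22 only (0.15).

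Members higher in P2.5 over E17.5 numbered 1 from FPKM. Members lower there numbered 1 with the median over cells, 1 without the 4 libraries and 2 with libraries 11 to 22 only. For P6.5 over P2.5, 2 were higher with the median over cells; 1 was lower with median-of-ratios scaling, and 0 were lower from FPKM or with a pseudocount of 2 CPM. For P6.5 over E17.5, 4 were higher with TMM scaling, with the median over cells and with libraries 1 to 10 only, and 1 from FPKM. In that comparison 3 were lower with the median over cells, without the 4 libraries and with libraries 11 to 22 only. The share of all genes past 2-fold was computed only for summed CPM with 0.5 CPM added, so these counts have no such share beside them.

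The median pro- to anti-apoptotic ratio, in order of stage, was 3.88, 3.90 and 1.37 from FPKM, and 4.17, 6.91 and 3.98 from FPKM without Bcl2l10. Without Bcl2l10 it was 2.55 at P2.5 and 1.92 at P6.5, and without Mcl1 4.33 at E17.5. With BH3-only members, or without Bax, it was 0.388 at P2.5 and 0.151 at P6.5. The cause of each shift was not tested beyond what the alternative itself changes. The alternatives on transcript length, on leaving out Bax and on FPKM without Bcl2l10 were chosen after seeing the data. No paired analysis was possible because the labels pair no cells. Depth limits the scarce members most (Bak1, Bcl2, Bbc3 and Pmaip1).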
